A study of Sus scrofa with 15 samples.

Results

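RASGEF1C and ARHGAP22, a pair of genes for regulators of small GTPases, were followed over all 15 RNA-seq libraries of a porcine kidney cell experiment. The genes are listed in the deposited count table as ENSSSCG00000014011 and ENSSSCG00000010381, and they are 2 of its 16660 genes. Both were chosen because, among named genes called higher in Tg1 than with the empty plasmid, and whose libraries did not overlap, they had the second and the third smallest adjusted p-value. Each value of that comparison is therefore given below as a description, with no test. The same holds for all other comparisons that use the Tg1 or the NC libraries, and only differences among the WT, Tg2 and Tg3 libraries were tested for these genes.

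All libraries came from LLC-PK1 cells, an established line from the proximal tubule of the pig kidney, which were transiently transfected with the pH11 targeting plasmid. The control group (NC) received this plasmid with no PKD2 gene, and every other group received it with human PKD2 behind a CAG promoter. The insert was wild type in WT, carried c.A1532T (p.D511V) in Tg1, c.T1967G (p.L656W) in Tg2, and c.C2224T (p.R742X) in Tg3. Each group held 3 wells, so the groups differed in the transgene while the pig cells, the neomycin cassette and the transfection were shared. A well holds transfected and untransfected cells together, so a larger share of responding cells and a larger change per cell cannot be told apart. The separate wells of a plasmid come from the same line, and the p-values measure the spread between these wells.

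Small GTPases are molecular switches that signal while GTP is bound and stop once it has been hydrolysed to GDP. Guanine nucleotide exchange factors (GEFs) load them with GTP, and GTPase-activating proteins (GAPs) speed up hydrolysis. RASGEF1C belongs to the RasGEF family, and its relatives RASGEF1A and RASGEF1B act as exchange factors for the Rap2 GTPases. ARHGAP22 is a RhoGAP that inactivates Rac1 and shares its PH domain and RhoGAP domain with ARHGAP24 and ARHGAP25. In tubule epithelium, small GTPases organise the actin cytoskeleton and cell junctions.

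Library totals ranged from 20216200 to 26132196 counts. After a filter at a mean of 2 CPM (counts scaled to a fixed library total) over the 15 libraries, 11553 genes were tested, both RASGEF1C and ARHGAP22 among them. Of 18 epithelial and proximal tubule markers, 16 were in the table and all 16 passed the filter, with a summed level of 4458 to 4985 CPM per library. Most of this sum came from the keratins KRT8 and KRT18, which averaged 2297 and 579 CPM. LRP2, the endocytic receptor megalin, averaged 260.9 CPM. Of 4 collecting duct and loop markers, 3 were in the table. SLC12A1 (12.2 CPM) and SCNN1G (9.31 CPM) passed the filter, and UMOD (0.139 CPM) did not. The fibroblast markers summed to at most 1.76 CPM and the endothelial markers to at most 2.07 CPM in any library, and none of either list passed the filter. Of 4 immune markers, CD3E, CD14 and CD68 passed it, whereas PTPRC, the pan-leukocyte marker, averaged 0.0166 CPM.

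RASGEF1C was lowest with the empty plasmid, intermediate with wild-type PKD2 and highest with the mutants. Its TMM-normalized level in NC replicates 1, 2 and 3 was 53.6, 60.8 and 55.9 CPM. The WT wells were at 61.4, 67.6 and 61.7 CPM. All 3 WT wells lay above all 3 NC wells, as for 3.73% of all tested genes, although the gap between the highest NC well and the lowest WT well was narrow, and WT replicate 2 stood above the other WT wells. The Tg1 wells were at 67.8, 70.0 and 72.6 CPM, the Tg2 wells at 72.5, 72.5 and 70.6 CPM, and the Tg3 wells at 68.5, 71.1 and 71.3 CPM. The 9 mutant wells overlapped with each other and did not overlap with the WT or the NC wells. The gap to WT was again narrow, with WT replicate 2 at 67.6 CPM and Tg1 replicate 1 at 67.8 CPM. Over all tested genes, the wells lay entirely above NC for 11.9% of genes in Tg1, 17.5% in Tg2 and 13.4% in Tg3, and entirely above WT for 8.45% in Tg1. The raw counts behind these levels ran from 1216 to 1777.

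In group means, RASGEF1C was at 56.8 ± 3.70 CPM (SD, n = 3) in NC and 63.6 ± 3.49 CPM (SD, n = 3) in WT. The mutant means were 70.1 ± 2.38 CPM in Tg1, 71.8 ± 1.10 CPM in Tg2 and 70.3 ± 1.60 CPM in Tg3 (SD, n = 3 each). Ordered by mean level, the groups ran NC, WT, Tg1, Tg3 and Tg2. The step from NC to WT was 6.79 CPM and that from WT to Tg1 was 6.57 CPM, and wells did not overlap across either step, though by a narrow gap in both. The step from Tg1 to Tg3 was 0.182 CPM, smaller than the SD of either group. The step from Tg3 to Tg2 was 1.52 CPM, close to the SD of Tg3, and wells overlapped across both of these steps.

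ARHGAP22 was also lowest in NC, but its highest level was in Tg1 alone. Its level was 29.2, 27.7 and 26.9 CPM in the NC wells and 30.3, 31.0 and 30.4 CPM in the WT wells. The Tg1 wells were at 35.9, 33.1 and 34.0 CPM, the Tg2 wells at 32.5, 33.0 and 31.5 CPM, and the Tg3 wells at 31.3, 31.8 and 31.3 CPM. All 3 Tg1 wells lay above the other 12 wells, and all 3 NC wells lay below the other 12. Over all tested genes, the Tg1 wells lay entirely above the Tg2 wells for 11.2% of genes and above the Tg3 wells for 11.8%. Tg2 and Tg3 overlapped with each other and lay above WT, as they did for 12.0% and 10.3% of all genes. In the case of Tg3 this was by less than 1 CPM on average. The raw counts ran from 629 to 841, so ARHGAP22 was measured with fewer reads than RASGEF1C.

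The ARHGAP22 means were 27.9 ± 1.19 CPM in NC, 30.6 ± 0.374 CPM in WT, 31.5 ± 0.272 CPM in Tg3, 32.3 ± 0.772 CPM in Tg2 and 34.4 ± 1.41 CPM in Tg1 (SD, n = 3 each). Counting noise alone would give a coefficient of variation of about 3.74% for ARHGAP22 and 2.57% for RASGEF1C at these counts. The observed coefficient of variation within a plasmid was 0.863% to 4.27% for ARHGAP22 and 1.53% to 6.52% for RASGEF1C. The small SDs of ARHGAP22 in WT and Tg3 were thus below what counting noise gives on average.

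**Figure D1:**
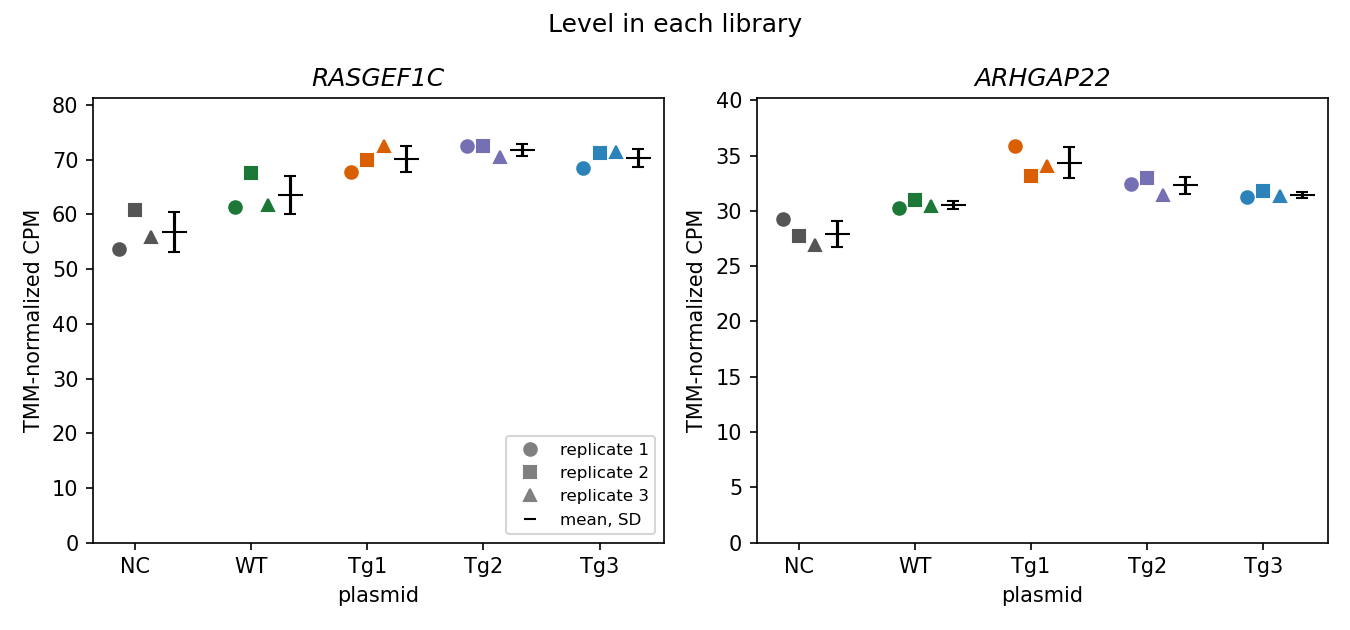
TMM-normalized CPM (vertical axis, from 0) of RASGEF1C (left) and ARHGAP22 (right) in each well, by plasmid. Circles, squares and triangles are replicates 1, 2 and 3, and the black bars are the mean and SD of 3 wells. RASGEF1C stands at 67.8 to 72.6 CPM in all 9 mutant wells, and ARHGAP22 at 33.1 to 35.9 CPM in Tg1, above every other well.

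In Tg1 against NC, the comparison that chose them, both genes differed by about the same factor. The log2 fold change was 0.30 for RASGEF1C (SE 0.05), a level 23.5% higher in Tg1. It was 0.30 for ARHGAP22 (SE 0.05), a level 23.0% higher. The share of all tested genes called higher in that comparison was 0.182%, and nothing is read from it for genes chosen on the same values. All 21 genes called higher had a symbol and no overlap, and RASGEF1C was the third of them by adjusted p-value. The gene just outside the choice was ADM, the vasodilator peptide adrenomedullin, at 98.4 CPM in Tg1 and 68.0 CPM in NC, which is 0.53 on the log2 scale (SE 0.09).

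The other plasmids were compared with the same NC wells, so their values are not independent of the choice. For RASGEF1C the log2 fold changes were 0.16 in WT, 0.34 in Tg2 and 0.31 in Tg3 (SE 0.05 each), which correspond to levels 11.9%, 26.5% and 23.8% higher than NC. For ARHGAP22 they were 0.13 in WT, 0.21 in Tg2 and 0.17 in Tg3 (SE 0.05 each), or 9.46%, 15.7% and 12.7% higher. RASGEF1C was thus above the 0.26 fold-change threshold (19.7%) in all 3 mutants, and ARHGAP22 in Tg1 only. Against WT, the Tg1 values were 0.14 for RASGEF1C (SE 0.05) and 0.17 for ARHGAP22 (SE 0.05). Against the other mutants, RASGEF1C in Tg1 differed by -0.03 from Tg2 and by less than 0.01 from Tg3, whereas ARHGAP22 was higher in Tg1 by 0.09 and 0.13 (SE 0.05 each).

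Among the WT, Tg2 and Tg3 libraries, whose means did not choose the genes, the level of RASGEF1C was slightly higher in Tg2 than in WT, and no other difference passed an adjusted p-value of 0.05. The fit over all 15 libraries that chose the genes also took its estimate of the spread from these wells, so the tests here are not fully independent of the choice. Tg2 exceeded WT by 0.18 on the log2 scale (SE 0.05, 95% interval 0.07 to 0.29), and edgeR's quasi-likelihood test gave an unadjusted p of 0.00381 and an adjusted p of 0.0462. The adjusted p passed 0.05 while the fold change stayed under 0.26, so RASGEF1C was not called under both thresholds. Over the 11553 genes, 5.92% were called between Tg2 and WT, and the unadjusted p was under 0.05 for 34.3%. All 3 Tg2 wells lay above all 3 WT wells, as they did for 12.0% of all genes, and the exact permutation test gave a two-sided p of 0.1, the smallest that 3 against 3 allows. The adjusted p from edgeR was 0.00634 without WT replicate 2 and 0.0362 without Tg2 replicate 3, but 0.135 to 0.201 without any of the other WT and Tg2 wells. It was 0.0588 with no filter on low counts, 0.0513 with edgeR's filterByExpr and 0.173 when only WT and Tg2 were fitted, so that it passed 0.05 by a narrow margin.

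Tg3 exceeded WT by 0.15 for RASGEF1C (SE 0.05, 95% interval 0.04 to 0.26), at an edgeR adjusted p of 0.171. In this comparison edgeR called 0 of all genes (0%), with 19.2% at an unadjusted p under 0.05, while DESeq2 called 116 genes. The Tg3 wells did not overlap with the WT wells, as in 10.3% of all genes in that direction (two-sided exact permutation p = 0.1). Tg3 and Tg2 differed by -0.03 (95% interval -0.14 to 0.08), with an adjusted p of 0.884 from edgeR. In the joint test for any difference among WT, Tg2 and Tg3, RASGEF1C had an unadjusted p of 0.00878 and an adjusted p of 0.102 from edgeR. With a block for the replicate number, the adjusted p of RASGEF1C in this test fell below 0.05, as given further below. Of all genes, 26.9% had an unadjusted p under 0.05 in this joint test and 0.225% an adjusted p of 0.05 or less. Without WT replicate 2, the highest WT well, the adjusted p from edgeR was 0.0165 in the joint test and 0.0272 for Tg3 against WT.

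For ARHGAP22, every interval among the same libraries included 0. Tg2 exceeded WT by 0.08 on the log2 scale (SE 0.05, 95% interval -0.02 to 0.18), and edgeR gave an adjusted p of 0.235. Tg3 exceeded WT by 0.04 (SE 0.05, 95% interval -0.06 to 0.14), and edgeR gave an adjusted p of 0.616. In both comparisons all 3 wells lay above all 3 WT wells, as for 12.0% of all genes in Tg2 and 10.3% in Tg3. The two-sided exact permutation p was 0.1 in each. Tg3 against Tg2 gave -0.04 (95% interval -0.14 to 0.06, adjusted p = 0.855 from edgeR). The joint test gave an adjusted p of 0.447 from edgeR. The upper ends of these intervals, 0.18 and 0.14, lie below the 0.26 threshold.

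**Figure D2:**
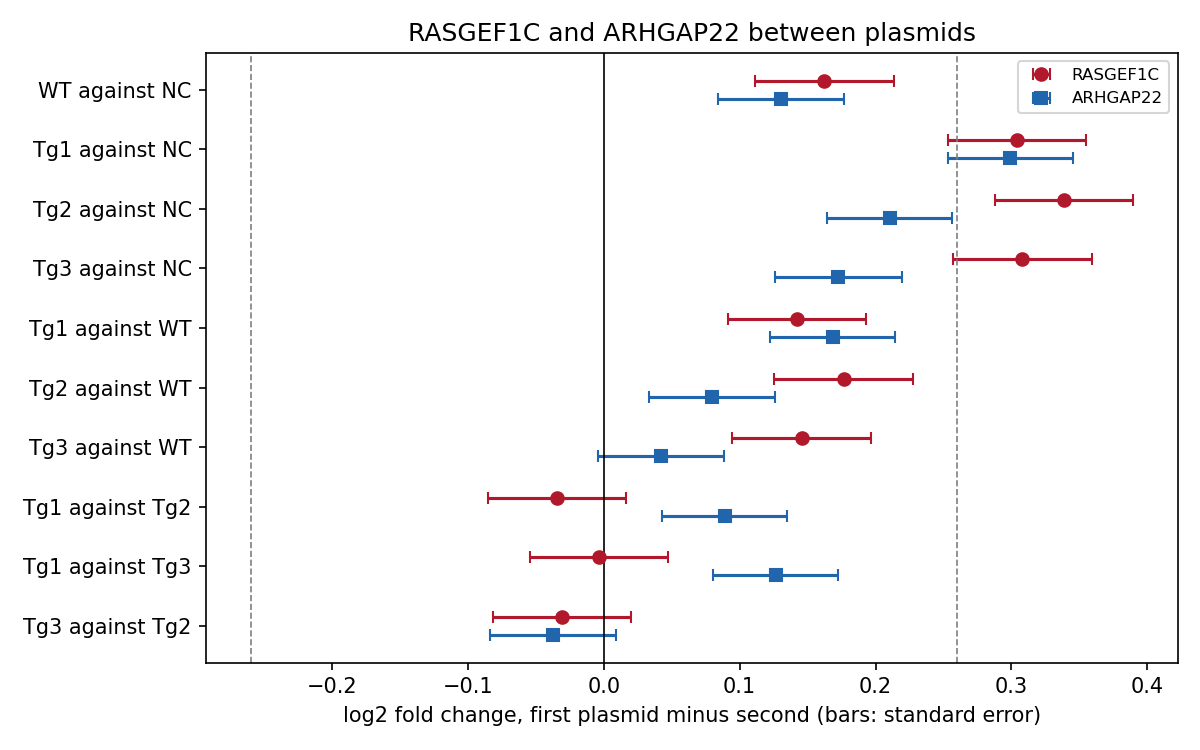
Log2 fold change (horizontal axis, first plasmid minus second) of RASGEF1C (red circles) and ARHGAP22 (blue squares) in the 10 comparisons between plasmids. Bars are standard errors, the solid line is 0 and the dashed lines are the thresholds of -0.26 and 0.26. RASGEF1C lies between 0.30 and 0.34 in all 3 mutants against NC, and ARHGAP22 lies at 0.30 in Tg1, 0.21 in Tg2 and 0.17 in Tg3.

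Both genes were lowest in NC and next lowest in WT. Among the mutants, ARHGAP22 was highest in Tg1, whereas RASGEF1C in Tg1 differed from Tg2 and Tg3 by less than the SE. Over all 15 libraries, Pearson's r between the log2 CPM of the 2 genes was 0.76 (Spearman correlation 0.79). After the mean of each plasmid had been subtracted, r was -0.17. The correlation over all libraries therefore came from the differences between plasmid means, and the Tg1 and NC libraries that chose both genes are part of it. Because both were chosen as higher in Tg1 than in NC, the choice itself favoured a positive r. The wells with the largest deviations were not the same for the 2 genes. RASGEF1C was most above its plasmid mean in NC replicate 2 and WT replicate 2, while ARHGAP22 was most above it in NC replicate 1 and Tg1 replicate 1.

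**Figure D3:**
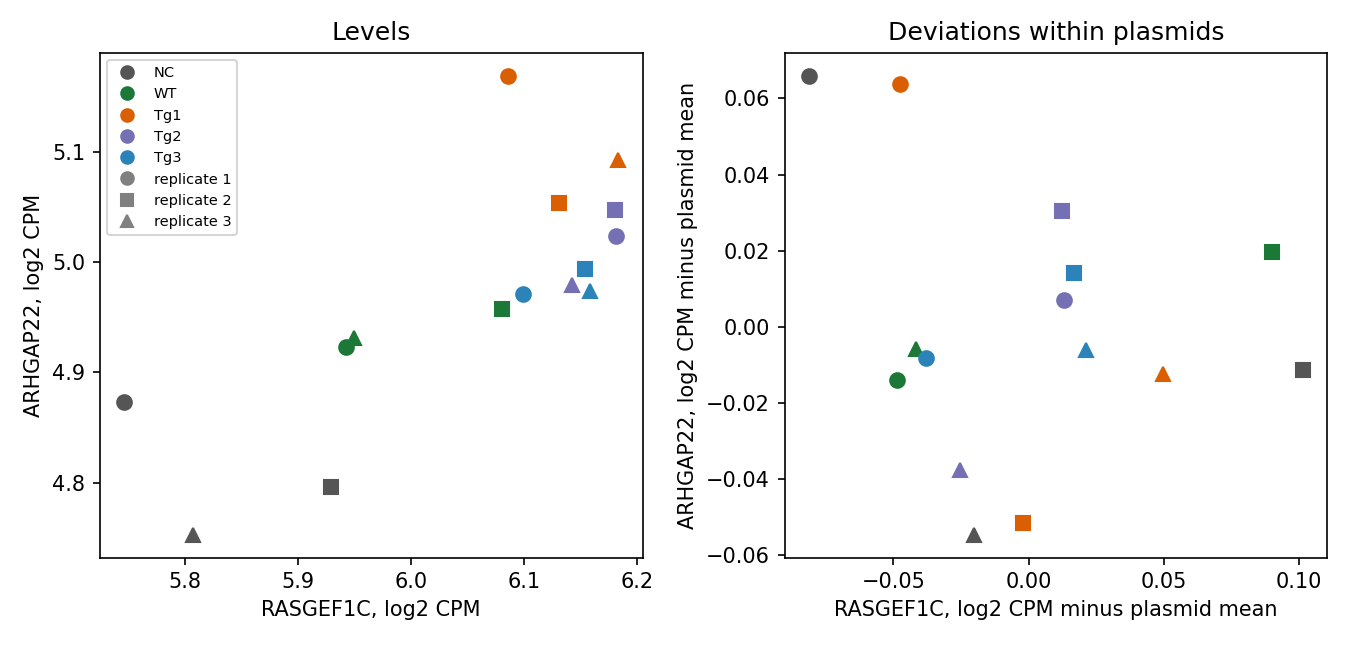
ARHGAP22 against RASGEF1C over the 15 libraries, as log2 CPM (left) and as log2 CPM minus the mean of the plasmid (right). Colours mark plasmids and symbols mark replicates. The points lie along a rising band on the left (r = 0.76) and show no shared direction on the right (r = -0.17).

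The genes most like RASGEF1C over the 15 libraries were CLU (r = 0.92), SPP1 (r = 0.91), SCARA3 (r = 0.91), TUBA1B (r = 0.90) and CCT3 (r = 0.90). CLU encodes the secreted chaperone clusterin and SPP1 the secreted phosphoprotein osteopontin. SCARA3 encodes a scavenger receptor, TUBA1B an alpha-tubulin and CCT3 a subunit of the cytosolic chaperonin. The likeness to CLU, SPP1 and SCARA3 also held within plasmids, with r of the deviations of 0.82, 0.80 and 0.83. In all, 276 of 11552 genes had an r above 0.8 with RASGEF1C. ARHGAP22 ranked 551st among all 11552 genes, so that many genes resembled RASGEF1C more closely than ARHGAP22 did. In the other direction, RASGEF1C ranked 60th by its r with ARHGAP22.

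The genes most like ARHGAP22 were ZGPAT (r = 0.88), RBP4 (r = 0.87), ACTG1 (r = 0.86), PRCC (r = 0.86) and TALDO1 (r = 0.86). ZGPAT encodes a zinc finger transcriptional repressor, RBP4 the plasma carrier of retinol, ACTG1 the cytoplasmic gamma-actin and TALDO1 the pentose phosphate enzyme transaldolase. Their likeness was weaker within plasmids, with r of the deviations from 0.23 for PRCC to 0.43 for ACTG1. Only 26 genes had an r above 0.8 with ARHGAP22. All of these correlations are over the same 15 libraries, which share their normalization, and none was tested.

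The rest of the small GTPase system was described by 5 lists with 159 genes in all, of which 137 were in the table and 112 passed the filter. In Tg1, none of the 112 was called higher than NC and 2 were called lower, which is 1.79% of the list against 1.19% of all genes. The median log2 fold change of the list in Tg1 was -0.04, against 0.00 over all genes. PLCE1, a phospholipase C with a RasGEF domain, fell from 69.6 ± 1.56 CPM in NC to 56.6 ± 2.64 CPM in Tg1 (SD, n = 3 each), with an adjusted p of 0.0497 from edgeR. RASAL2, a Ras GAP, fell from 14.4 ± 0.650 CPM to 11.2 ± 0.342 CPM (SD, n = 3 each), with an adjusted p of 0.026 from edgeR. Neither was called in any of the 6 fits that left out a Tg1 or an NC well. The calls over all genes also fell below 138, their number with all wells, in each of these fits.

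In Tg2, 16 of the 112 were called, 6 higher and 10 lower, which is 14.3% of the list against 8.43% of all genes. By direction, 4.73% of all genes were called higher and 3.70% lower. Leaving out NC replicate 1, NC replicate 3, Tg2 replicate 1 or Tg2 replicate 2 left 0 of the 16 calls, and leaving out Tg2 replicate 3 raised the count to 25. The calls over all genes in Tg2, 974 with all wells, likewise ran from 0 to above that number when single wells were left out. The loss is thus not particular to these lists. In WT and in Tg3, 0 of the 112 were called by edgeR, and DESeq2 called 1 and 0. At an unadjusted p under 0.05 there were 5 in WT and 26 in Tg3, where the shares over all genes were 4.54% and 18.1%. Over all genes, 0% were called in WT and 0% in Tg3 by edgeR.

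Among the exchange factors, 18 RasGEF genes other than RASGEF1C were tested. RASGEF1A, the only other RASGEF1 gene with enough reads, was lower in Tg2, where RASGEF1C was highest. RASGEF1A was at 16.5 to 21.6 CPM in the NC wells and at 9.91 to 14.0 CPM in the Tg2 wells, with no overlap. It fell by 0.76 on the log2 scale in Tg2 (SE 0.19, edgeR adjusted p = 0.0263), and the call held in the fits without NC replicate 2 or Tg2 replicate 3. The call was lost in every other fit without a well, as were all calls of the lists. In Tg1 and Tg3 its log2 fold changes were -0.37 and -0.47, with adjusted p of 0.284 and 0.225 from edgeR. RASGEF1B averaged 0.0199 CPM and was not tested. PLCE1 also fell in Tg2, by 0.32 (SE 0.07, edgeR adjusted p = 0.0213). Called in all were 1 of the 18 in Tg1 (5.56%) and 2 in Tg2 (11.1%), against 1.19% and 8.43% of all genes. No RasGEF gene on the list was called higher in any of the 4 comparisons. Of all genes, 0.182% were called higher in Tg1, 4.73% in Tg2 and 0% in WT and Tg3. At such shares, the absence of upward calls among 18 genes is not read as a result.

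Among the RhoGAPs, 46 genes other than ARHGAP22 were tested, and 0 were called in Tg1, while 8 were called in Tg2, 4 higher and 4 lower. These are 0% and 17.4% of the list, against 1.19% and 8.43% of all genes. DLC1, a GAP for RhoA, rose from 15.8 ± 2.13 CPM in NC to 26.0 ± 2.85 CPM in Tg2 (SD, n = 3 each), or by 0.72 on the log2 scale (SE 0.14, edgeR adjusted p = 0.0142). ARHGAP8 rose from 7.95 ± 2.26 CPM to 14.8 ± 1.21 CPM (SD, n = 3 each), or by 0.89 (SE 0.25, edgeR adjusted p = 0.0356). DEPDC1 and ARHGAP19, which take part in cell division, fell by 0.28 and 0.30 on the log2 scale, with adjusted p of 0.0168 and 0.0237 from edgeR. Each of these 4 calls held without NC replicate 2 and without Tg2 replicate 3. Each was lost without any other NC or Tg2 well, as were all calls of the lists. ARHGAP24, a relative of ARHGAP22 with the same domains and named here after its values had been seen, was at 37.3 ± 0.720 CPM in NC and 37.6 ± 2.11 CPM in Tg1 (SD, n = 3 each). ARHGAP25 averaged 0.0717 CPM and was not tested.

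Of 18 Ras subfamily GTPases tested, 0 were called in Tg1 (0%) and 1, RAP2B, in Tg2 (5.56%), against 1.19% and 8.43% of all genes. RASAL2 was the single call among 16 Ras and Rap GAPs in Tg1 and again in Tg2, which is 6.25% of that list in each. In Tg2 it fell by 0.29 on the log2 scale (edgeR adjusted p = 0.027). With lists this short, a single call is not read as a trait of the family.

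**Figure D4:**
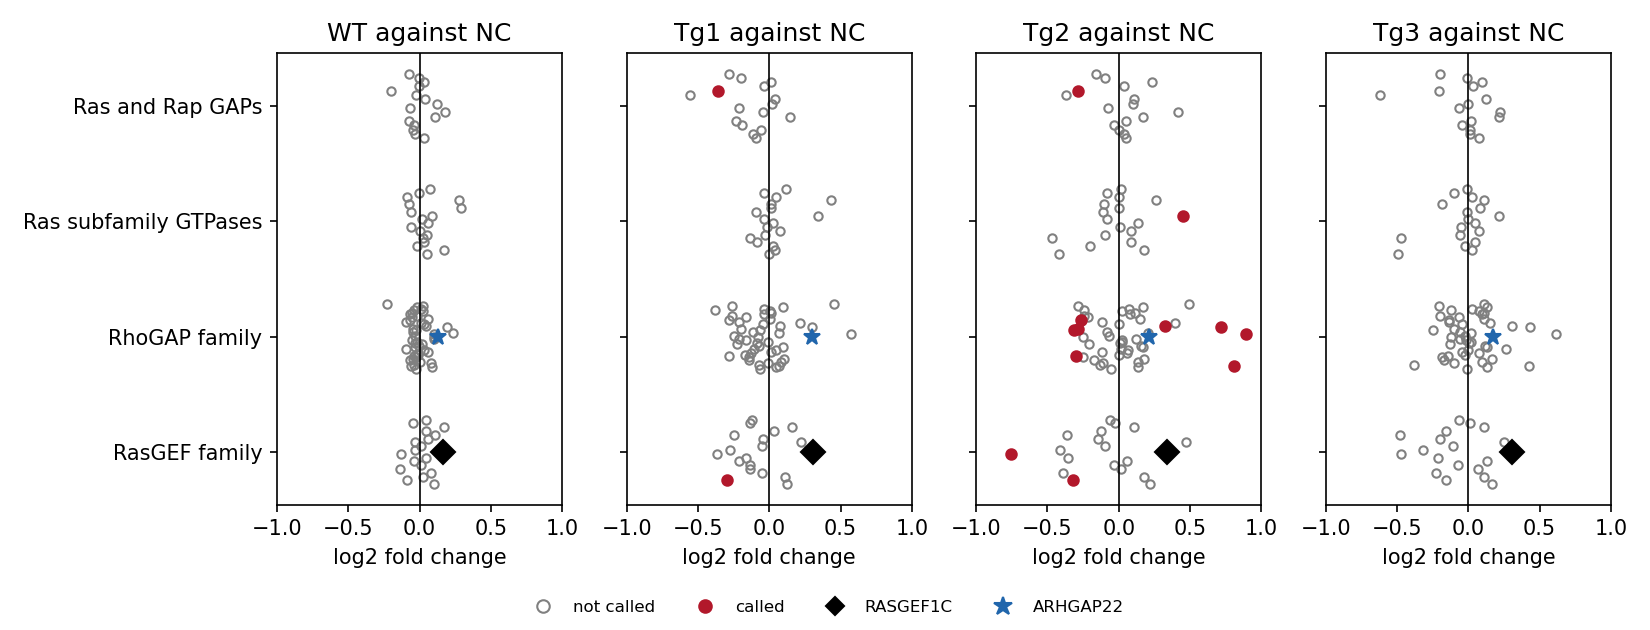
Log2 fold change against NC (horizontal axis) of every tested gene of 4 of the small GTPase lists, in one panel per plasmid. Open circles were not called and red circles were called by edgeR, and the diamond and the star mark RASGEF1C and ARHGAP22 in the rows of their families. In Tg1 both lie to the right while the 2 called list genes lie to the left, and in Tg2 the 12 called genes lie on both sides.

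Of the GTPases, kinases and the transcription factor VEZF1 listed as partners of these proteins, 10 genes were measured. In Tg1 and in Tg2, 1 of the 10 was called, beside 1.19% and 8.43% of all genes, and the other comparisons gave no call, as over all genes. RAP2B, a Rap2 GTPase of the kind that RASGEF1A and RASGEF1B activate, rose from 33.2 ± 3.19 CPM in NC to 45.3 ± 4.48 CPM in Tg2 (SD, n = 3 each), or by 0.45 on the log2 scale (SE 0.14, edgeR adjusted p = 0.0446). Its call held without Tg2 replicate 3 and was lost without any other NC or Tg2 well. In Tg1 it was at 41.9 ± 5.16 CPM (SD, n = 3), with an adjusted p of 0.197 from edgeR. ROCK2, a kinase downstream of RhoA, fell from 73.5 ± 0.890 CPM in NC to 55.3 ± 5.33 CPM in Tg1 (SD, n = 3 each), or by 0.41 on the log2 scale (SE 0.07, edgeR adjusted p = 0.0101). Its call was lost without NC replicate 1, NC replicate 3 or Tg1 replicate 2 (edgeR adjusted p = 0.0626, 0.0545 and 0.0513). For ROCK1 the log2 fold change in Tg1 was -0.16 (SE 0.04, edgeR adjusted p = 0.0366), below the fold-change threshold.

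RAC1, the GTPase that ARHGAP22 inactivates, was at 422.6 ± 25.4 CPM in NC and 477 ± 23.5 CPM in Tg1 (SD, n = 3 each), with an adjusted p of 0.376 from edgeR. In Tg2 it was at 514 ± 63.6 CPM (SD, n = 3), with an adjusted p of 0.0807 from edgeR. With a block for the replicate number, RAC1 was called in Tg2 (edgeR adjusted p = 0.0255). For TNIK, a kinase bound by Rap2, the log2 fold change in Tg2 was -0.23 (SE 0.07, edgeR adjusted p = 0.0362), also below the fold-change threshold. Without Tg2 replicate 3 both were called, RAC1 at 0.38 (edgeR adjusted p = 0.0262) and TNIK at -0.29 (edgeR adjusted p = 0.0161). RAP2A, RAP2C, MAP4K4, MINK1 and VEZF1 had log2 fold changes from -0.17 to 0.04 in their 20 comparisons with NC, and their smallest adjusted p from edgeR was 0.11.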

How the data were processed

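The deposited table holds raw whole-number counts for each Ensembl gene, which the authors made by quantifying reads on the pig cDNA sequences of Ensembl with Salmon. How transcripts were summed to genes is not given in the sources used here, and paralogs can share reads. From these counts, TMM-normalized CPM were computed and edgeR 4.0.16 (R 4.3.3) was fitted with glmQLFit and glmQLFTest to all 15 libraries in 1 model of group means, with Benjamini-Hochberg adjustment over the 11553 genes whose mean CPM reached 2. Genes were called where the adjusted p was at most 0.05 and the log2 fold change, in either direction, at least 0.26. Standard errors (SE) were derived from the estimate and its F statistic. Library depth (20216200 to 26132196 counts) sets the counting noise, and intervals are at 95%. The fits were tested on simulated counts with independent wells and the same spread for all genes, a simpler setting than these data.

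Symbols came from an Ensembl identifier table, which paired 13373 of the 16660 identifiers. Both genes, the gene lists and the marker lists were chosen with earlier results of these data known. Named from each list and comparison with NC were up to 4 called genes with the smallest adjusted p, all partner genes, and the 5 genes with the highest Pearson r of log2 CPM (prior count 2). Samples were grouped by their titles. Same-numbered wells of WT and NC deviated together (r from 0.15 to 0.54, every pair over 0.1), whereas over all pairs of plasmids r ran from -0.36 to 0.55. Wells therefore appeared paired by number only for WT and NC. The main fit held no term for this number, WT against NC included. The number entered only as the block among the alternatives. For Tg3 the mean r of same-numbered wells was 0.29 with NC and 0.26 with WT (other numbers -0.14 and -0.12). For Tg1 it was -0.16 with Tg2 and -0.04 with Tg3. In 8 of 15 libraries, the best correlated library of another plasmid had the same number. Alternatives were DESeq2 1.42.0, its size factors, other filters, fits of only the plasmids compared, calls by adjusted p alone, a block for the replicate number, and fits without single wells. Replicates differed by more than counting noise (chi-square per degree of freedom 2.9 to 46.6) and were all kept. Neighbouring genes were taken from the gene order of a RefSeq table for Sscrofa11.1, and no sequence was used here. Of the 5 gene lists, 1 entered the counts over all lists and is not reported here by itself.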

Additional observations from a re-analysis of the deposited data

How the results depend on the processing

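Of the 270 values of RASGEF1C and ARHGAP22 under the alternatives, 3 had another sign than the reported value, all for RASGEF1C in Tg1 against Tg3, where both are close to 0. The joint test of RASGEF1C among WT, Tg2 and Tg3 passed an adjusted p of 0.05 with the replicate block (0.037) and ranged from 0.0165 to 0.375 when single wells were left out, and the cause was not tested. With the replicate block, the joint test of ARHGAP22 did not pass an adjusted p of 0.05. Between pairs of WT, Tg2 and Tg3, the block could make no call, because the differences of both genes stayed below the fold-change threshold. Comparisons with NC or Tg1, WT against NC included, were not tested for these genes, so no call could change there. The block turned RAC1 in Tg2 into a call (adjusted p = 0.0255 from edgeR). The small GTPase genes called in Tg1 numbered 2, but 6 with no fold-change threshold, 6 with DESeq2, 6 with the replicate block, 4 with only the groups compared, and 1 with no filter or with filterByExpr, and 0 to 1 when single wells were left out. In Tg2 they numbered 0 to 25 without single wells, and in WT 0 to 1, with 1 under DESeq2. Over all genes, the calls against NC in Tg1 were 138, but 264 with no fold-change threshold, 244 with DESeq2, 246 with the block and 16 to 83 without single wells. In Tg2 they were 974, but 1643 with no fold-change threshold, 1624 with the block and 0 to 1880 without single wells. In WT and Tg3 they were 0, but 11 and 52 with DESeq2, 0 and 11 with the block, and at most 25 in WT without a well (WT replicate 2). For Tg2 against WT they were 684, but 1099 with no fold-change threshold, 1184 with DESeq2, 1578 with the block, 0 with only the groups compared and 0 to 2421 without single wells. For Tg3 against WT they were 0, but 116 with DESeq2, 111 with the block and up to 1321 without WT replicate 2. By Spearman correlation, 0 of the 5 genes most like RASGEF1C and 2 of those most like ARHGAP22 stayed among the first 5, and none of either by deviations from plasmid means. Counting noise is larger for ARHGAP22 than for RASGEF1C, with 719 against 1526 counts on average. Its SD within plasmids was nevertheless smaller, 0.042 against 0.061 on the log2 scale.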

Other observations

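In the order of protein-coding genes on the Sscrofa11.1 assembly, RASGEF1C lies next to MAPK9 and ARHGAP22 next to MAPK8, the genes for the stress-activated kinases JNK2 and JNK1. Neither kinase gene was called in any of the 4 comparisons with NC by edgeR. MAPK9 averaged 69.7 CPM, with log2 fold changes from -0.06 to 0.03 and a smallest adjusted p of 0.326 from edgeR, and its r with RASGEF1C over the 15 libraries was -0.12. MAPK8 averaged 36.7 CPM, with log2 fold changes from -0.02 to 0.05 and a smallest adjusted p of 0.518 from edgeR, and its r with ARHGAP22 was -0.06. Of the 6 nearest genes around RASGEF1C, 3 on each side, 3 were tested. CNOT6, a deadenylase subunit, was the one with the strongest relation to RASGEF1C (r = -0.66), and its log2 fold changes ran from -0.18 to 0.03, with a smallest adjusted p of 0.0228 from edgeR, in Tg2, at a change below the fold-change threshold. TBC1D9B, which carries a Rab GAP domain, had log2 fold changes from 0.01 to 0.07. Of the 6 nearest genes around ARHGAP22, MAPK8 was the only one tested. These neighbours were looked up after the values of RASGEF1C and ARHGAP22 had been seen.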
